A study of Mus musculus with 60 samples.

Results

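Bone marrow-derived macrophages labelled ATF3-/- (Atf3-deficient) were stimulated with CpG, a synthetic DNA that activates the endosomal receptor TLR9, and were compared with unstimulated macrophages of the same genotype label. The comparison rests on 6 of the 60 arrays of the series, 3 labelled CpG and 3 labelled con, which were taken by genotype, condition and experiment from the labels. Both groups share the strain label C57BL/6, differentiation for 6 d with 40 ng/ml M-CSF and a period of 10 h on the label. CpG was given at 100 nM for 4 h of that period, and the controls had no ligand.

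Other groups of 3 arrays are set beside these. In the same experiment, macrophages labelled ATF3-/- with P3C, a TLR2 ligand given at 50 ng/ml for 4 h, WT macrophages with CpG and WT controls were used. An earlier experiment of WT macrophages with CpG and controls, 3 arrays each, gives a second WT response. The growth protocol names wild-type C57BL/6 mice of 6 to 8 weeks for every macrophage and does not say how the Atf3-deficient marrow was made. No label ties an array to an animal or culture, so p-values measure the spread between arrays, which may be technical.

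TLR9 sits in endosomes, where it binds DNA rich in unmethylated CpG and signals through the adaptor MyD88. That signal releases NF-kB from its IkB inhibitors and activates MAP kinases, and together they switch on cytokine, chemokine and feedback genes in macrophages. ATF3 is a bZIP transcription factor of the ATF and CREB family that binds cyclic AMP response elements and is known as a brake on Toll-like receptor target genes in mouse macrophages.

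Signals were normalised across the 36 arrays of the experiment and are given as log2 normalised signal, on which a difference of 1 is 2-fold. Between 26.4 and 29.6% of 45281 probes were detected on CpG arrays and between 30.3 and 30.8% on control arrays. Each CpG array correlated with an array of some other group at least as highly (0.9826 to 0.9908) as with its own least similar replicate (0.9815 to 0.9835). All 11 macrophage markers were detected on all 6 arrays, with a summed signal of 76223 to 89452.9 on CpG arrays and 90068.8 to 95345.8 on control arrays. None of 7 dendritic cell, 6 T and NK cell and 4 endothelial markers was detected. Neutrophil markers were detected for 2 of 8 genes, S100a8 and Camp, on CpG arrays alone (summed signal 370.5 to 571.9, against 190.1 to 197.4 on control arrays). The fibroblast markers Col1a1, Col1a2 and Dcn were detected in both groups, 3 of 6 (summed signal 537.2 to 980.8 on CpG arrays and 695.1 to 936.1 on control arrays). Cd79b was the 1 of 3 B cell markers detected, Fcer1a the 1 of 5 mast cell markers and Klf1 the 1 of 3 erythroid markers. All 3 fibroblast genes were higher in controls labelled ATF3-/- than in WT controls (median difference 1.54). The part of these cells in the results was not tested, and fewer cells of a type cannot be told apart from less RNA per cell.

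The Atf3 probe did not show a loss under the label. Its signal was 12.68, 12.03 and 12.0 with CpG and 12.75, 12.91 and 12.37 in controls labelled ATF3-/-, against 10.61, 10.92 and 11.03 with CpG and 11.12, 11.28 and 11.2 in WT controls. All 6 arrays labelled ATF3-/- lay above all 6 WT arrays, and the difference between controls was 1.47 ± 0.17 (adjusted p = 9.87e-08). Where the probe lies relative to the deleted part of the gene is not given in the sources used here, so its signal checks nothing about the genotype. A transcript that separates the labels is Erdr1, which was chosen after its values were seen. Its signal was 4.45, 4.98 and 4.66 with CpG and 4.5, 4.55 and 4.31 in controls labelled ATF3-/-, where it was not well above background, against 10.82, 11.76 and 11.97 with CpG and 11.62, 11.46 and 11.18 in WT controls. The genotype is therefore given as a label throughout.

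CpG changed a large share of the genes measured. Of 9213 genes tested, 4753 (51.6%) passed an adjusted p of 0.05 in limma's moderated test, of which 1902 (20.6%) rose and 2851 (30.9%) fell in macrophages labelled ATF3-/-. At least 2-fold changes were seen for 717 rises (7.78%) and 953 falls (10.3%). The CpG and control arrays did not overlap for 5327 genes (57.8%). The WT arrays of the same experiment gave 4696 calls (51.0%), with 2037 rises (22.1%) and 2659 falls (28.9%), of which 754 (8.18%) and 857 (9.30%) were at least 2-fold. With arrays scaled to 1 median and no quantile normalisation (median scaling), the response labelled ATF3-/- held 909 rises and 2476 falls, and the median change of all genes moved to -0.23, against -0.10. No chip held both groups, so chip and condition cannot be told apart within a chip. With the chip as a block, estimated through the other groups, there were 1706 rises and 2556 falls.

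The largest rises with CpG belonged to feedback inhibitors, interleukin-1, chemokines and an acute phase gene. Socs3, an inhibitor of cytokine receptor signalling through JAK and STAT, had 13.71, 13.84 and 13.63 with CpG and 6.68, 6.42 and 7.09 in controls, a rise of 7.0 ± 0.38 (SE, 3 arrays a group; adjusted p = 1.65e-15). Il1b, the precursor of the inflammatory cytokine interleukin-1 beta, had 14.5, 14.71 and 14.46 with CpG and 8.6, 7.98 and 9.07 in controls. In both genes every CpG array lay more than 5 log2 units above every control array. Il1b rose by 6.01 ± 0.26, and the other genes of the 10 largest rises among genes detected in both groups were Saa3 (5.97 ± 0.37), Cxcl2 (5.92 ± 0.28), Acod1 (5.76 ± 0.32), Cxcl1 (5.73 ± 0.27), Dusp2 (5.51 ± 0.17), Clec4e (5.48 ± 0.26), Il1rn (5.34 ± 0.19) and Cd69 (5.19 ± 0.26). Saa3 encodes a serum amyloid A protein, Clec4e the lectin receptor Mincle and Cd69 an early activation antigen.

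Several genes had a high signal with CpG and were not well above background in controls, so that only a lower bound of the fold can be given. Lcn2, the iron-scavenging protein lipocalin-2, had 11.51, 11.06 and 11.07 with CpG and 4.37, 4.45 and 4.42 in controls, where it was detected on none of 3 arrays. It was at least 63.7-fold higher (adjusted p = 5.97e-20). Edn1, which encodes the vasoconstrictor peptide endothelin-1, had 10.9, 10.97 and 10.87 with CpG and 4.61, 4.49 and 4.79 in controls and was at least 51.7-fold higher. Gfi1, a zinc finger repressor, was at least 21.1-fold higher, Rasgrp1, an exchange factor for Ras, at least 18.3-fold and Ptges, the inducible prostaglandin E synthase, at least 16.8-fold. The groups were far apart in each, with the CpG arrays of Lcn2, Edn1 and Gfi1 all above 9 and their control arrays all below 5.2.

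**Figure D1:**
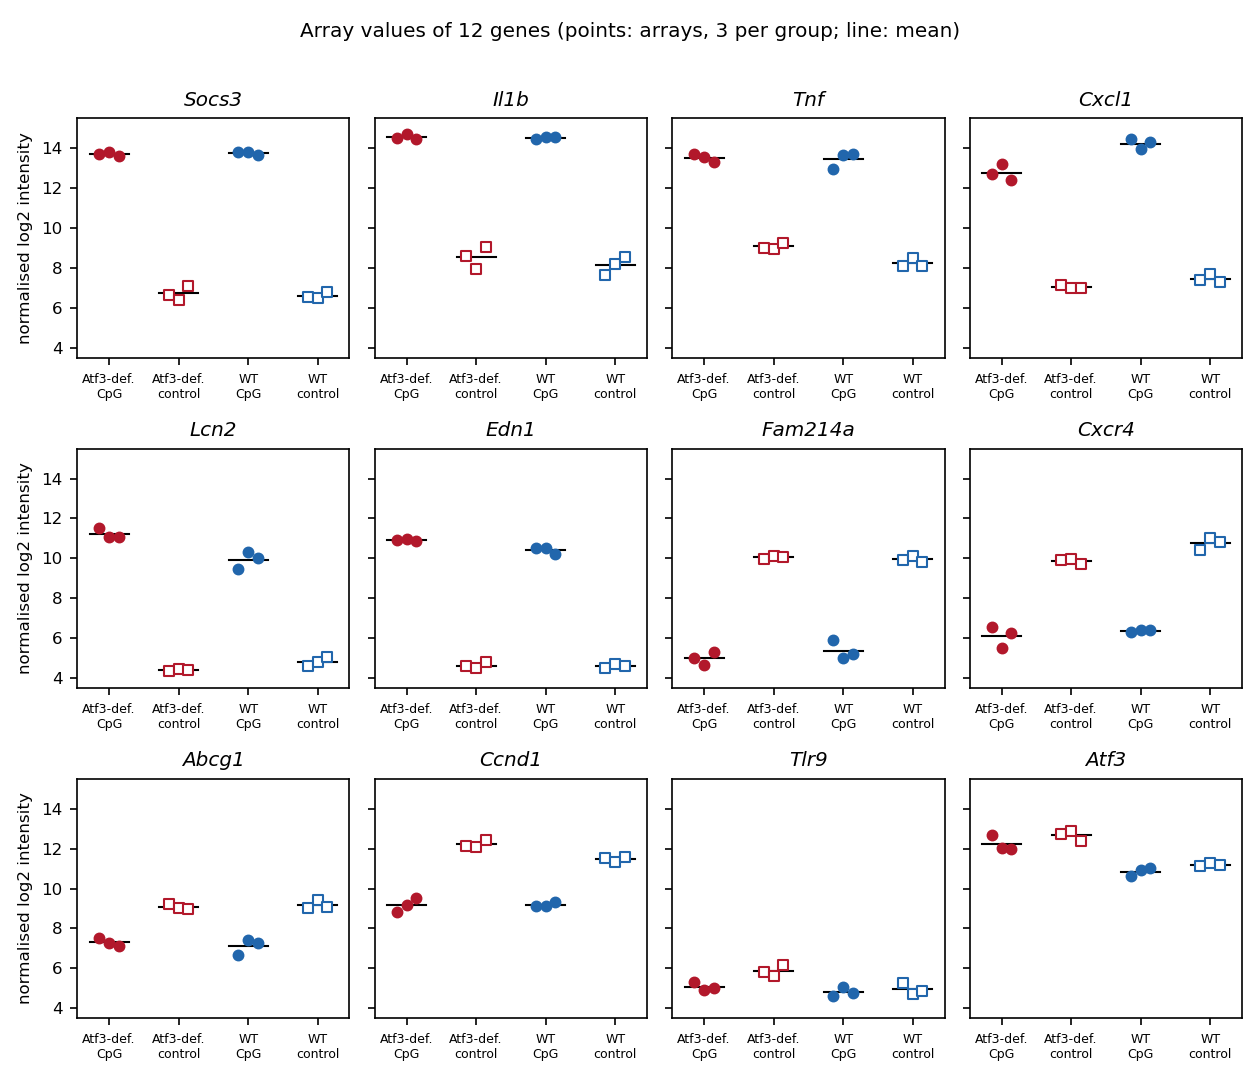
Log2 normalised signal (vertical axis) of 12 genes on each array, in the groups ATF3-/- CpG, ATF3-/- control, WT CpG and WT control; points are arrays and lines are means of 3. Socs3, Il1b, Tnf, Cxcl1, Lcn2 and Edn1 were higher with CpG and Fam214a, Cxcr4, Abcg1 and Ccnd1 lower under both labels, and Atf3 was higher on every array labelled ATF3-/-.

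Cytokine genes that passed the threshold all rose. Of 17 tested, 10 rose (58.8%) and none fell, where 20.6% of all genes rose and 30.9% fell. Genes not well above background in controls could not be seen to fall, and 3 of the 17 were detected on none of the 6 arrays. The median change was 1.48 (2.00 in WT, -0.10 over all genes). Tnf had 13.73, 13.59 and 13.29 with CpG and 9.03, 8.97 and 9.25 in controls, a rise of 4.45 ± 0.24. Il10, which restrains macrophage activation, rose by 3.53 ± 0.29, and Il18, Ebi3 and Tnfsf9 rose by 1.91, 1.48 and 3.26. Il6 had 6.8, 7.92 and 7.57 with CpG and 4.49, 4.57 and 4.35 in controls, detected on all 3 CpG arrays and no control array, and was at least 4.62-fold higher. The bounds were at least 10.8-fold for Il1a and at least 11.6-fold for Il27, a subunit of interleukin-27 that pairs with the product of Ebi3. The growth factor genes Csf2 and Csf1 and the interferon gene Ifnb1 did not pass (adjusted p = 0.278, 0.138 and 0.674), and Csf2 and Ifnb1 were detected on none of the 6 arrays.

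Chemokine genes rose more broadly. Of 15 tested, 12 rose (80%) and none fell, where 20.6% of all genes rose and 30.9% fell. The same limit on falls applies. The median was 2.84 (2.64 in WT). Cxcl1 and Cxcl2, ligands of the neutrophil receptor CXCR2, led, with 12.69, 13.23 and 12.44 with CpG and 7.15, 7.01 and 7.02 in controls for Cxcl1. Cxcl2 had 12.55, 12.41 and 12.1 with CpG and 6.53, 6.4 and 6.37 in controls. Neither gene's groups came within 5 log2 units of each other. The monocyte-attracting genes Ccl7 (4.87 ± 0.25), Ccl12 (4.43 ± 0.31) and Ccl2 (2.84 ± 0.26) rose, as did Ccl5 (4.0 ± 0.2) and the CXCR3 ligands Cxcl10 (3.33 ± 0.27) and Cxcl9 (3.24 ± 0.2). Ccl3 rose by 2.61 and Ccl4 by 0.66. The other 3 did not pass.

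NF-kB subunits, inhibitors and targets mostly rose. Of 20 tested, 18 rose (90%) and 1 fell (5%), where 20.6% of all genes rose and 30.9% fell. The median was 2.55 (2.37 in WT). The ubiquitin-editing inhibitor Tnfaip3 (A20) rose by 4.11 ± 0.2. Nfkbia, which encodes the inhibitor IkB alpha, had 13.11, 12.53 and 12.47 with CpG and 8.64, 8.53 and 8.78 in controls, a rise of 4.05 ± 0.26. Gadd45b (3.67), Traf1 (3.48) and Bcl3 (3.42) came next. Among the subunits the change was 3.01 for Rel, 2.42 for Relb, 2.33 for Nfkb2 and 0.32 ± 0.12 for Rela. The deubiquitinase gene Cyld did not pass (0.05, adjusted p = 0.731), and Nfkbid fell by 0.55. With the chip as a block Nfkbid and Rela did not pass (adjusted p = 0.0703 and 0.06), which left 17 rises and no fall. Rela did not pass when any of 5 of the 6 arrays was left out (adjusted p of up to 0.155), nor Nfkbid without the first CpG array (0.121).

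The promoters of 3 of these genes are shown because their CpG responses were among the largest of the chemokine and NF-kB lists and the window holds the letters of an NF-kB-type element. Each is the 250 bases before the RefSeq start on GRCm38.p6, read 5′ to 3′ on the gene's strand, with matches to GGGNNNTTCC on either strand in capitals (overlapping matches merged). They were chosen after the matches were seen. The windows are chr5:90890995-90891244 on the plus strand for Cxcl1, chr5:90903649-90903898 on the plus strand for Cxcl2 and chr12:55492648-55492897 on the minus strand for Nfkbia.
Cxcl1: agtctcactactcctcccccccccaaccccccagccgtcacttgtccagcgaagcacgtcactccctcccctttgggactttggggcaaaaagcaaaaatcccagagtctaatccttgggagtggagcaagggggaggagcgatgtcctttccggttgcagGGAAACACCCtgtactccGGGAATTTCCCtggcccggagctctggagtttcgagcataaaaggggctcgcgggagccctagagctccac
Cxcl2: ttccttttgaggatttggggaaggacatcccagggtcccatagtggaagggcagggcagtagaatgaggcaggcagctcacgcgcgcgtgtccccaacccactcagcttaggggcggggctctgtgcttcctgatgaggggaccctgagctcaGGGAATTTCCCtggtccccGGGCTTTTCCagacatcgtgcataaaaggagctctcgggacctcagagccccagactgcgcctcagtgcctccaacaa
Nfkbia: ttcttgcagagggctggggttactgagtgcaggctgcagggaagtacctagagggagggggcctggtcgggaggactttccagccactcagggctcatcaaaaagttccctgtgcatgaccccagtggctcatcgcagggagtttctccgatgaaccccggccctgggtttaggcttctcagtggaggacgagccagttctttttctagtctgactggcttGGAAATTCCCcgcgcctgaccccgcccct
Cxcl1 and Cxcl2 each held 3 matches, between 89 and 70 bases before the start in Cxcl1 and between 97 and 78 in Cxcl2. Nfkbia held 1, at 29 bases. The motif was found in 8 of 18 NF-kB list promoters with a table entry and in 5 of 10 chemokine promoters. It was found in 3 of 9 promoters of the 10 largest rises (Cxcl2, Cxcl1 and Il1rn) and in 0 of 10 of the largest falls. Among all tested genes with an entry, 472 of 7545 (6.26%) held it, as did 4.65% of all 32851 entries. A match is a run of letters and not a measured binding site.

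Most feedback genes rose. Of 14 tested, 10 rose (71.4%) and 3 fell (21.4%), where 20.6% of all genes rose and 30.9% fell, and the median was 1.93. Besides Socs3, the phosphatase genes Dusp2 (5.51), Dusp16 (3.42), Dusp1 (2.46) and Dusp5 (1.27) rose, which encode enzymes that switch off MAP kinases. Il1rn, the interleukin-1 receptor antagonist, rose by 5.34 ± 0.19. Zfp36, whose product tristetraprolin speeds the decay of cytokine mRNA, rose by 1.68. Cish, of the SOCS family, was at least 4.36-fold higher. In contrast Dusp6, specific for ERK, fell by 2.72 ± 0.22 and Zfp36l1, a relative of Zfp36, fell by 2.68 ± 0.15. Pdlim2 fell by 1.21.

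Of 17 genes of TLR9 sensing itself, 5 rose (29.4%) and 4 fell (23.5%), shares near those over all genes tested (20.6% and 30.9%). Tlr9 had 5.3, 4.94 and 5.02 with CpG, detected on no array, and 5.81, 5.62 and 6.15 in controls, detected on all 3. The groups did not overlap, and Tlr9 was at least 1.32-fold lower with CpG (adjusted p = 6.59e-05). The kinase genes Irak3 (1.78), a brake on MyD88 signalling, and Irak2 (1.73) rose, and Myd88 rose by 0.48. Tab1 fell by 1.67 and Irf5 by 1.04. The TLR9 chaperone gene Unc93b1 did not pass (-0.21, adjusted p = 0.14). Of 11 other Toll-like receptor genes tested, 4 rose (36.4%) and 5 fell (45.5%). Tlr2 had 13.76, 13.38 and 13.21 with CpG and 12.28, 12.34 and 12.23 in controls, a rise of 1.17 ± 0.16, and its partners Tlr6 and Tlr1 rose by 1.46 and 1.31. The endotoxin receptor Tlr4 fell by 1.82 ± 0.14, while its co-receptor Cd14 rose by 0.74, and the endosomal receptors Tlr13 and Tlr7 fell by 2.18 and 0.66.

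Receptors for chemokines, lipids and nucleotides moved both ways. Of 18 G protein-coupled receptor genes tested, 6 rose (33.3%) and 9 fell (50%), where 20.6% of all genes rose and 30.9% fell, and the median was -0.47. Cxcr4, the receptor that holds leukocytes in the marrow, had 6.59, 5.53 and 6.25 with CpG and 9.93, 9.95 and 9.73 in controls, a fall of 3.75 ± 0.21 with no overlap and with detection on 2 of 3 CpG arrays. Lpar6, a lysophosphatidic acid receptor, fell by 3.97 ± 0.24, Cx3cr1, the fractalkine receptor, by 2.47 and P2ry14 by 1.8. Cnr2, the peripheral cannabinoid receptor, was at least 9.4-fold lower with CpG. The receptors that rose were Gpr84 (4.58 ± 0.29), a sensor of medium-chain fatty acids, Hcar2 (2.95), Ccrl2 (2.4), the endothelin receptor Ednrb (2.24), the formyl peptide receptor Fpr2 (1.97) and Ccr3 (1.03).

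Other falls were of similar size. They are ranked among genes detected on at least 1 array of both groups. Fam214a had 5.0, 4.67 and 5.32 with CpG and 9.94, 10.14 and 10.09 in controls, a fall of 5.06 ± 0.22 (adjusted p = 6.87e-18). It was detected on 1 of 3 CpG arrays, as was Gpr183, and Rasgrp3 on 2 of 3, so that the size of these falls is limited by background. Rasgrp3 fell by 4.51 ± 0.27, the opposite direction to its paralog Rasgrp1. Tmem273 (-4.4 ± 0.22), Tmem86a (-4.33 ± 0.17), Gpr183 (-4.05 ± 0.19), which is the receptor for oxysterols made from 25-hydroxycholesterol, Irf2bp2 (-3.89 ± 0.23), Slc46a3 (-3.73 ± 0.17) and the homeobox gene Hhex (-3.67 ± 0.15) followed, with Lpar6 and Cxcr4 completing the 10 largest falls. Among genes detected on no CpG array, Hmga2-ps1 was at least 12-fold lower, Ncapg2 at least 7.46-fold, Angptl4 at least 5.58-fold and Kctd12b at least 5.28-fold. Of 11 macrophage markers 3 rose (27.3%) and 3 fell (27.3%), shares near those over all genes. Mertk, a receptor for the uptake of dying cells, fell by 2.81 ± 0.23 and the mannose receptor Mrc1 by 0.89, while Spi1, the master transcription factor PU.1, rose by 1.35.

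Cell cycle genes fell. Of 21 tested, none rose and 16 fell (76.2%), where 20.6% of all genes rose and 30.9% fell. The median was -0.97 (-0.79 in WT, where 14 fell). Ccnd1, the D-type cyclin that carries growth factor signals such as M-CSF into the cycle, had 8.85, 9.16 and 9.55 with CpG and 12.12, 12.09 and 12.44 in controls, a fall of 3.03 ± 0.18. Genes of the replicative helicase fell together, with Mcm7 at -1.95, Mcm2 at -1.76, Mcm6 at -1.76, Mcm5 at -1.46 and Mcm4 at -1.32, and E2f1 fell by 1.81. The mitotic genes Top2a (-0.06, adjusted p = 0.873) and Cdc20 (-0.26, adjusted p = 0.214) did not pass.

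Most effector enzymes of activated macrophages rose. Of 12 genes of itaconate, nitric oxide, arginine and prostaglandin metabolism tested, 8 rose (66.7%) and 3 fell (25%), with a median of 1.85. Over all genes 20.6% rose and 30.9% fell. Acod1, which makes itaconate, had 13.42, 13.58 and 13.62 with CpG and 7.74, 7.63 and 7.95 in controls. Ass1, which regenerates arginine for nitric oxide synthesis, rose by 2.94 and Gch1, for the cofactor tetrahydrobiopterin, by 2.03. Nos2, the inducible nitric oxide synthase, had 6.41, 5.61 and 5.26 with CpG, detected on 1 of 3 arrays, and 4.47, 4.52 and 4.94 in controls, detected on none. Ptgs2, the inducible cyclooxygenase, had 6.65, 6.47 and 6.3 with CpG and 4.4, 4.64 and 4.37 in controls and was at least 2.38-fold higher. Arg2 was at least 4.49-fold higher. The genes of leukotriene and prostaglandin D synthesis Ltc4s, Alox5ap and Hpgds fell by 0.99, 0.63 and 0.76. Of 15 glycolysis genes tested 4 rose (26.7%) and 1 fell (6.67%), where 20.6% of all genes rose and 30.9% fell. Those that rose were led by the glucose transporter Slc2a1 (2.17), Hif1a (1.79), Pfkp (1.62) and Pfkl (0.82), and the hexokinase Hk3 was lower (-0.67).

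Of 14 costimulatory and class II genes tested, 6 rose (42.9%) and 3 fell (21.4%), where 20.6% of all genes rose and 30.9% fell. Cd40, the receptor for T cell help, had 13.4, 13.19 and 12.97 with CpG and 9.49, 9.32 and 9.44 in controls, a rise of 3.77 ± 0.2. Cd274, the inhibitory ligand PD-L1, rose by 3.05, Slamf7 by 1.96, Cd44 by 1.27 and Cd83 by 0.49, and the CD28 ligand genes Cd80 (0.35, adjusted p = 0.0713) and Cd86 (-0.16, adjusted p = 0.369) did not pass. With the chip as a block Cd80 passed (adjusted p = 0.0415). The class II activator Ciita fell by 0.83, H2-DMa by 0.54 and H2-DMb1 by 0.52, and H2-Eb1 rose by 0.42. Of 12 class I and immunoproteasome genes tested, 4 rose (33.3%) and 1 fell (8.33%). Psme2 rose by 1.37, Nlrc5 by 0.95, Tapbp by 0.88 and Tap1 by 0.58. With the chip as a block Psme2, Tapbp and H2-Eb1 did not pass (adjusted p = 0.0607, 0.325 and 0.109). Cd83, H2-Eb1 and H2-DMa did not pass when 1 array was left out (adjusted p of up to 0.0913, 0.155 and 0.0828).

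Among stress genes, Slc7a11, the cystine transporter controlled by NRF2 and ATF4, rose by 4.55 ± 0.2. Of 15 NRF2 target genes tested 6 rose (40%) and 2 fell (13.3%), where 20.6% of all genes rose and 30.9% fell. Txnrd1 rose by 1.26, Sqstm1 by 0.93 and Srxn1 by 0.71. With the chip as a block 3 of the 15 rose and 1 fell, and Sqstm1 and Srxn1 did not pass (adjusted p = 0.067 and 0.179). With median scaling 2 rose and none fell, and Txnrd1 and Srxn1 did not pass (adjusted p = 0.0637 and 0.0951). Of 17 ATF4 target genes tested 9 rose (52.9%) and 1 fell (5.88%), with a median of 0.57. Chac1, which degrades glutathione, rose by 2.55, Mthfd2 by 1.63, Ppp1r15a by 1.38 and Atf5 by 1.0, and Cebpg fell by 0.58. Of 12 complement and acute phase genes tested 6 rose (50%) and 1 fell (8.33%). Besides Lcn2 and Saa3, the scavenger receptor Marco rose by 3.73 and complement factor B, Cfb, by 2.03, and haptoglobin, Hp, was at least 8.84-fold higher.

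Among ATF, AP-1 and early-response factors 12 of 22 tested rose (54.5%) and 4 fell (18.2%), where 20.6% of all genes rose and 30.9% fell. The median was 0.79 (0.34 in WT). Batf, a bZIP partner of JUN proteins, rose by 4.36 ± 0.31, Ier3 by 2.92, Junb by 2.06, Egr2 by 2.0 and Jdp2, a repressor of AP-1 sites, by 1.74. Fosl2 rose by 1.09. Fos fell by 0.91 and Egr1 by 0.62, and Jun did not pass (-0.38, adjusted p = 0.128). The Atf3 probe fell by 0.44 ± 0.17 (adjusted p = 0.0291), and this call was lost when either of 2 of the CpG arrays or either of 2 of the controls was left out. It was also lost with median scaling (adjusted p = 0.262) and in a fit of only the groups compared (0.131), and kept with the chip as a block (0.0187).

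**Figure D2:**
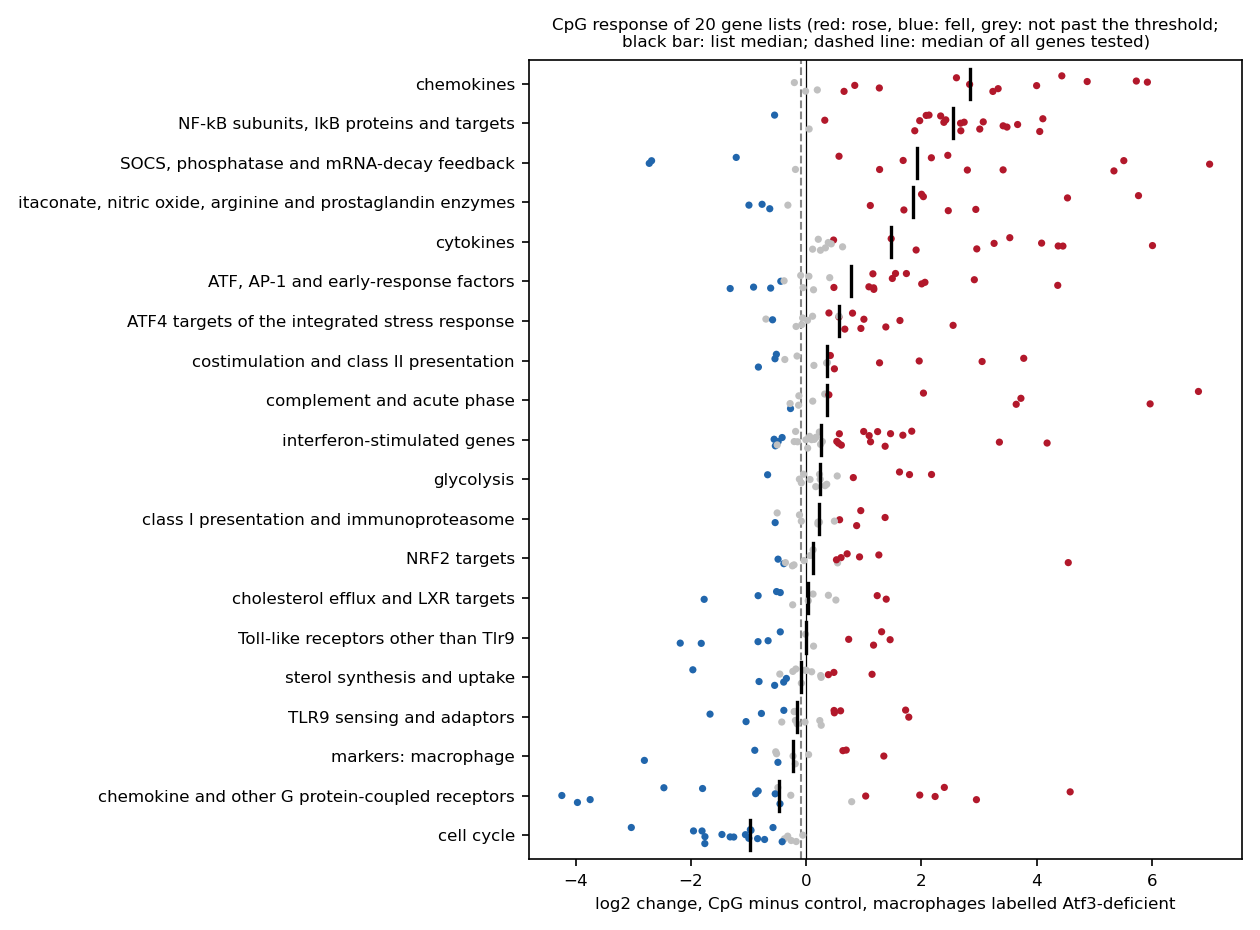
Log2 change with CpG in macrophages labelled ATF3-/- (horizontal axis) of each tested member of 20 gene lists (rows); red points rose, blue points fell, grey points did not pass the threshold, black bars are list medians and the dashed line is the median of all genes (-0.10). The chemokine, NF-kB and feedback lists lay furthest to the right and the cell cycle list to the left.

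The interferon-stimulated genes, which encode antiviral proteins and are driven by type I interferon, rose more often than they fell. Of 31 tested, 14 rose (45.2%) and 4 fell (12.9%), where 20.6% of all genes rose and 30.9% fell, and the median was 0.25. In WT macrophages 27 rose and none fell, with a median of 1.23, where 22.1% of all genes rose and 28.9% fell. The guanylate-binding protein gene Gbp2 had 12.12, 12.25 and 12.02 with CpG and 10.35, 9.97 and 10.57 in controls labelled ATF3-/-, against 12.15, 11.88 and 11.81 with CpG and 8.34, 8.87 and 8.81 in WT controls. Both labels reached about the same signal with CpG, from control arrays that did not overlap between labels. Ifit3, an RNA-binding antiviral protein gene, had 13.17, 13.15 and 13.16 with CpG and 13.7, 13.51 and 13.87 in controls labelled ATF3-/-, against 11.58, 11.83 and 11.8 with CpG and 10.61, 11.13 and 11.08 in WT controls. It fell by 0.53 ± 0.16 under the label ATF3-/-, where its 3 CpG arrays lay below its 3 controls, and rose by 0.8 in WT. Ifit2 (-0.56) and Irf7 (-0.42) fell too, Irf1 did not pass (-0.18, adjusted p = 0.218), and Ifi205 rose by 4.18 and Gbp5 at least 7.14-fold. With the chip as a block Isg15 (1.24), Rsad2 (0.56) and Ifit2 did not pass (adjusted p = 0.109, 0.273 and 0.0648), and with median scaling 10 rose and none fell. Without 1 CpG or 1 control array Ifit2, Irf7 and Rsad2 did not pass (adjusted p of up to 0.0552, 0.121 and 0.105).

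The promoters of Gbp2 and Ifit3 are shown as 2 genes of this list that moved in opposite directions with CpG under the label ATF3-/-. That of Ch25h is shown as a gene whose window holds the letters of a cyclic AMP response element. The response of Ch25h also differed between labels, and a link of that difference to the element or to ATF3 was not tested. Windows and strands are as above: chr3:142620413-142620662 on the plus strand for Gbp2, chr19:34583279-34583528 on the plus strand for Ifit3 and chr19:34475149-34475398 on the minus strand for Ch25h. Capitals mark GAAANNGAAA, the core of the interferon-stimulated response element, on either strand in the first pair, and TGACGTCA in Ch25h. They were chosen after the matches were seen.
Gbp2: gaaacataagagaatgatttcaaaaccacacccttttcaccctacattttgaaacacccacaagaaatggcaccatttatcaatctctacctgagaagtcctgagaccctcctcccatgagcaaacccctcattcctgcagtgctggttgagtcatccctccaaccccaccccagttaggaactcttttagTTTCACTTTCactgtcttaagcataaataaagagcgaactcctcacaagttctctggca
Ifit3: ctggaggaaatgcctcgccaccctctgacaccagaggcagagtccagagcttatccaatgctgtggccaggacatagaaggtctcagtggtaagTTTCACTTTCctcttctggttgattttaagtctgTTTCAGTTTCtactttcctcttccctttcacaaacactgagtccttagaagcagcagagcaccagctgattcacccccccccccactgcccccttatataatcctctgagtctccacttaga
Ch25h: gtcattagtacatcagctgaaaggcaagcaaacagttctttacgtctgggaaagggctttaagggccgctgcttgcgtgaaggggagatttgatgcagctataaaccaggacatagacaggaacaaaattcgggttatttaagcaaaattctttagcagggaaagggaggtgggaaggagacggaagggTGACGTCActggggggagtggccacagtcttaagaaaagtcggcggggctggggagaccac
Gbp2 held 1 match, 59 bases before the start, and Ifit3 held 2, between 156 and 122 bases before it. Ch25h held 1 match to TGACGTCA, 61 bases before the start. GAAANNGAAA was found in 13 of 25 promoters of the interferon-stimulated list, in 6 of 11 of its members with a smaller response under the label ATF3-/-, and in 3.53% of the promoters of tested genes (2.98% of all entries). TGACGTCA was found in 3.11% of the promoters of tested genes (1.55% of all entries) and in none of the 25.

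The responses under both labels were alike for most genes. Of the 4753 genes called under the label ATF3-/- and the 4696 called in WT, 3574 were called in the same direction, which is 75.2% of the first and 76.1% of the second, and 25 were called in opposite directions. Across the 9213 genes, which are not independent replicates, the 2 responses correlated with Pearson's r of 0.90 and Spearman's rho of 0.84, with arrays normalised together. Socs3 rose by 7.0 under the label ATF3-/- and 7.13 in WT, Il1b by 6.01 and 6.39, and Fam214a fell by 5.06 and 4.59. For these 3 genes the difference between labels did not pass (adjusted p = 0.929, 0.625 and 0.461; difference -0.13 ± 0.54, -0.39 ± 0.36 and -0.47 ± 0.31).

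The response itself differed between labels for 287 genes (3.12%), tested as the CpG effect under the label ATF3-/- minus that in WT. It was higher on the log2 scale under the label ATF3-/- for 89 genes (0.966%) and lower for 198 (2.15%), by at least 2-fold for 51 (0.554%) and 75 (0.814%). Of the 287, 151 also differed between the control groups, where 13.2% of all genes did, and 190 between the CpG groups, where 22.7% did. The difference in response is computed from these same groups, so overlap is built in and is no separate result. The count was 190 with the chip as a block, 229 without the WT CpG array that correlated least with its replicates (0.9551), 32 with median scaling, all 32 among the 287, and 67 in a fit of only the 4 groups compared. It ran between 180, without the third ATF3-/- control array, and 473, without the second WT CpG array.

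**Figure D3:**
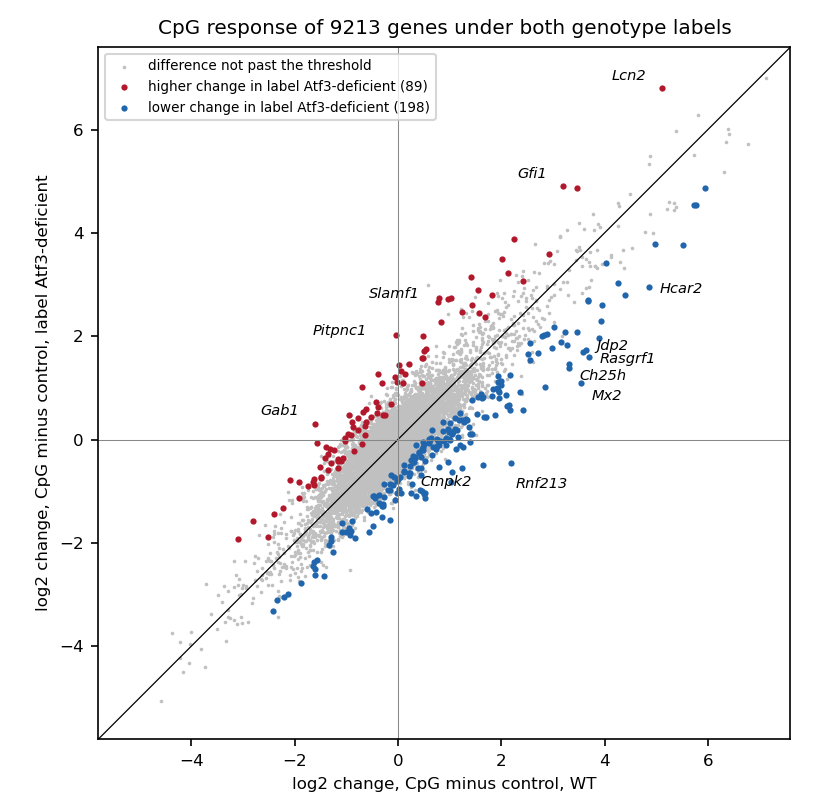
Log2 change with CpG under the label ATF3-/- (vertical axis) against that in WT macrophages (horizontal axis) for 9213 genes; the diagonal marks equal changes, red points are the 89 genes with a higher change under the label ATF3-/- and blue points the 198 with a lower one. Most points lay along the diagonal, and Mx2, Ch25h, Rasgrf1 and Rnf213 lay below it on the side where WT rose.

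Of 31 interferon-stimulated genes tested, 14 had a lower response under the label ATF3-/- and none a higher one, where 2.15% of all genes had a lower one, with a median difference of -0.87 (-0.05 over all genes). Mx2, a dynamin-like antiviral GTPase, had 10.58, 10.71 and 10.49 with CpG and 9.42, 9.24 and 9.85 in controls labelled ATF3-/-, against 10.14, 10.22 and 10.14 with CpG and 6.46, 6.66 and 6.74 in WT controls. The groups with CpG lay close together, and the controls labelled ATF3-/- lay 2.88 ± 0.18 above WT controls. The difference in response was -2.45 ± 0.25 (adjusted p = 8.17e-07). Cmpk2, a mitochondrial nucleotide kinase gene, had 11.03, 11.31 and 11.63 with CpG and 11.87, 11.76 and 11.86 in controls labelled ATF3-/-, against 11.13, 10.39 and 9.95 with CpG and 8.65, 9.37 and 8.53 in WT controls, a difference of -2.14 ± 0.34. Rsad2 (viperin) had 12.6, 12.77 and 12.94 with CpG and 12.21, 11.89 and 12.53 in controls labelled ATF3-/-, against 11.66, 11.74 and 11.79 with CpG and 8.95, 9.47 and 9.53 in WT controls, a difference of -1.86 ± 0.26. In all 3 genes every control labelled ATF3-/- exceeded every WT control.

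Across the list, 30 of 31 genes were higher in controls labelled ATF3-/- than in WT controls and none lower, where 595 (6.46%) of all genes were higher and 624 (6.77%) lower. The median difference of the list between controls was 2.07 (-0.02 over all genes), and was 2.10 within chip 1 and 2.02 within chip 2. The 3 fibroblast markers tested were higher in the same controls, all 3 past the threshold, with medians of 1.54, 1.90 within chip 1 and 1.26 within chip 2. With CpG 2 of the 3 were higher under the label ATF3-/- (median 1.23), and their part in the list's difference was not tested. Dcn, which encodes the matrix protein decorin, had 9.5, 8.47 and 8.9 with CpG and 9.13, 9.48 and 8.91 in controls labelled ATF3-/-, against 7.93, 6.81 and 6.56 with CpG and 6.7, 6.91 and 6.95 in WT controls. With CpG, 23 of the 31 interferon-stimulated genes were higher under the label ATF3-/- and 1 lower, where 817 (8.87%) and 1272 (13.8%) of all genes were, with a median of 1.15. Usp18, a brake on interferon receptor signalling, and Ifit2 differed in response by -1.84 ± 0.24 and -1.79 ± 0.27, Irf1 by -1.31 ± 0.17 and Irf7 by -0.93 ± 0.22. The difference did not pass for Gbp5 (-0.46, adjusted p = 0.552) or Ifi205 (0.31, adjusted p = 0.762), which rose under both labels. The counts of lower responses were 13 with the chip as a block, 16 without the WT CpG array that stood apart, and 4 with median scaling, where the median was -0.74. Ifnb1, the interferon beta gene, was detected on none of the 6 arrays labelled ATF3-/- (4.6, 5.43 and 4.73 with CpG) and on 3 of 3 WT CpG arrays (6.18, 5.44 and 5.63), where it was at least 1.57-fold higher than in WT controls. Its fitted difference in response of -1.28 rests on values not well above background in 3 of the 4 groups.

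Of 17 sterol synthesis and uptake genes tested, 3 rose (17.6%) and 5 fell (29.4%) with CpG under the label ATF3-/- (median -0.08). These shares were near those over all genes (20.6% and 30.9%). In WT 10 rose and 2 fell (median 0.73, and 0.98 in the earlier WT experiment). The response was lower than in WT for 6 of 17 (2.15% of all genes) and higher for none. Hsd17b7, a late enzyme of cholesterol synthesis, had 8.37, 8.91 and 9.29 with CpG and 8.24, 8.27 and 8.62 in controls labelled ATF3-/-, against 11.07, 10.38 and 10.39 with CpG and 8.9, 8.56 and 8.74 in WT controls. The WT CpG arrays stood above all others. Stard4, a carrier of cholesterol between membranes, had 6.51, 6.7 and 7.89 with CpG and 7.59, 7.57 and 8.4 in controls labelled ATF3-/-, against 9.32, 8.71 and 8.64 with CpG and 7.7, 7.99 and 7.94 in WT controls. Its CpG arrays spanned more than 1 log2 unit under the label ATF3-/-, and the difference in response was -1.84 ± 0.38 (adjusted p = 0.00452). Sqle, Msmo1, Lss and Mvd differed by -0.79, -0.93, -0.8 and -0.91. Mvd did not pass when any of 7 of the 12 arrays was left out, nor Sqle for any of 5 (adjusted p of up to 0.0869 and 0.0963). In a fit of only the 4 groups compared none of the 6 passed (adjusted p of 0.112 to 0.28). The transcription factor gene Srebf2 rose under both labels (1.14 and 1.41 in WT), and Dhcr7 was at least 3.04-fold lower with CpG. Between controls 1 of 17 was higher and 3 lower under the label ATF3-/-, with a median of -0.09. With CpG none was higher and 11 were lower, with a median of -0.94. With median scaling 2 of 17 responses were lower, and the median difference was -0.81.

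Of 11 genes of cholesterol efflux tested, 2 rose (18.2%) and 4 fell (36.4%), shares near those over all genes. Abcg1, the exporter that loads HDL, had 7.51, 7.29 and 7.12 with CpG and 9.21, 9.02 and 9.0 in controls, a fall of 1.77 ± 0.18 with no overlap, and it fell by 2.07 in WT. Npc1 fell by 0.83 and the LXR alpha gene Nr1h3 rose by 1.23. Ch25h, cholesterol 25-hydroxylase, whose promoter is shown above, had 12.27, 12.16 and 11.95 with CpG and 10.8, 10.85 and 10.56 in controls labelled ATF3-/-, against 10.48, 10.07 and 10.34 with CpG and 7.17, 7.09 and 6.69 in WT controls. Its controls labelled ATF3-/- lay above the WT CpG arrays. The rise was 1.39 ± 0.19 under the label ATF3-/- and 3.31 in WT, a difference of -1.92 ± 0.28 (adjusted p = 6.25e-05). With median scaling this difference did not pass (adjusted p = 0.114).

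**Figure D4:**
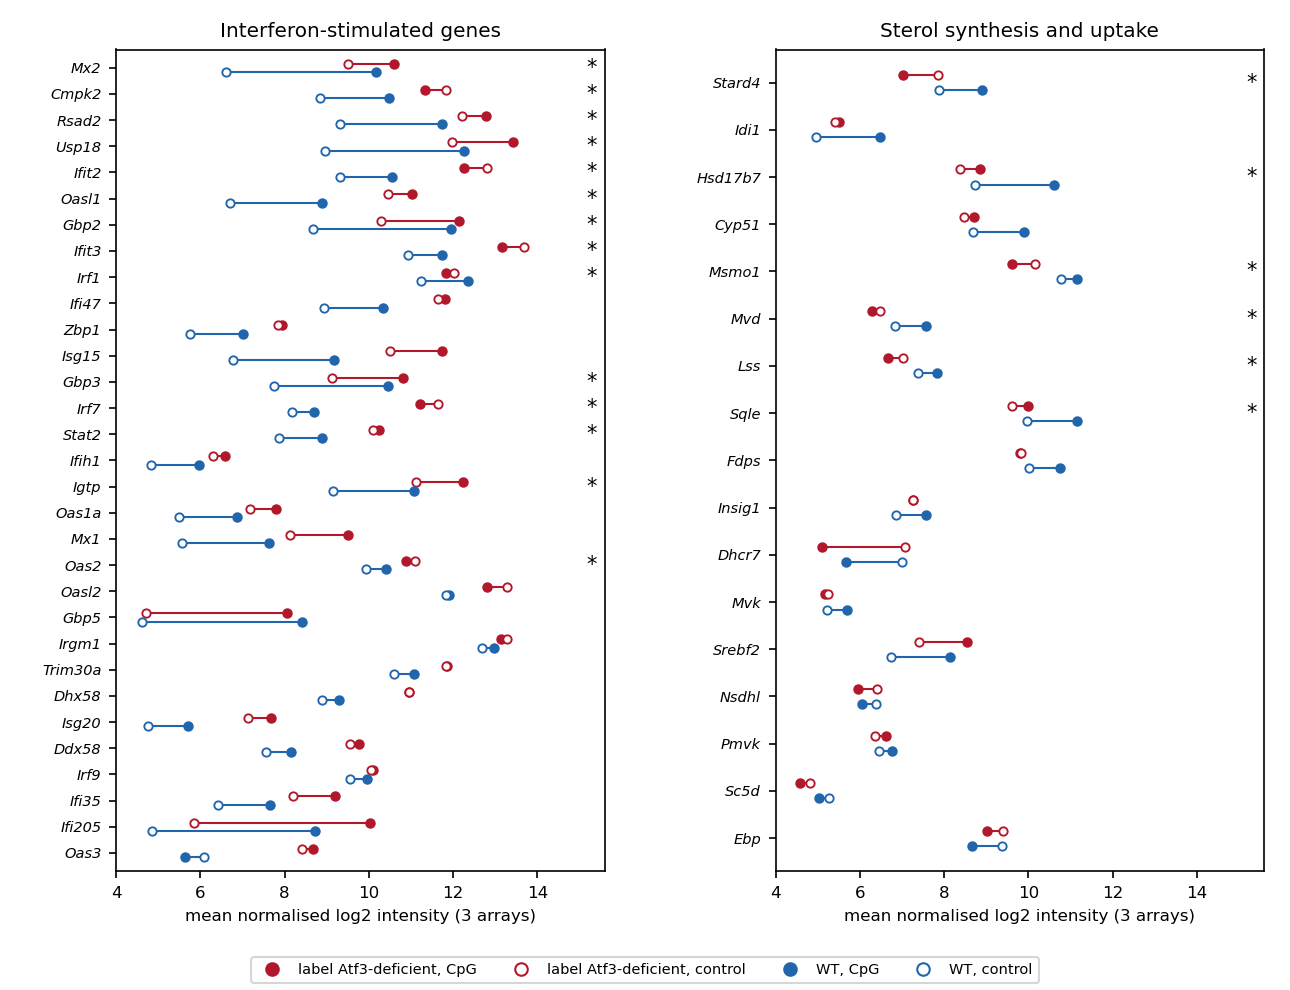
Mean log2 normalised signal of 3 arrays (horizontal axis) for each tested interferon-stimulated gene and sterol gene (rows), with 1 symbol for each of ATF3-/- CpG, ATF3-/- control, WT CpG and WT control; an asterisk marks genes whose response differed between labels. Controls labelled ATF3-/- lay right of WT controls in nearly all interferon-stimulated rows, and WT CpG lay right of the other groups in most sterol rows.

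Outside these lists the smallest responses relative to WT were those of Rnf213, Rasgrf1, Fpr2, Hcar2 and Jdp2. Rnf213, a large ubiquitin ligase gene, had 7.17, 7.27 and 8.17 with CpG and 8.03, 7.31 and 8.62 in controls labelled ATF3-/-, against 9.17, 8.6 and 8.45 with CpG and 6.36, 6.59 and 6.71 in WT controls, a difference of -2.64 ± 0.42. It did not pass under the label ATF3-/- (-0.45, adjusted p = 0.215) and rose by 2.19 in WT. Rasgrf1, an exchange factor for Ras, had 5.59, 6.36 and 6.11 with CpG and 4.4, 4.44 and 4.42 in controls labelled ATF3-/-, against 8.59, 8.06 and 8.28 with CpG and 4.59, 4.77 and 4.44 in WT controls. Its CpG groups did not overlap, and it was not well above background in either control group. Jdp2 had 7.93, 8.42 and 7.77 with CpG and 6.26, 6.39 and 6.26 in controls labelled ATF3-/-, against 9.55, 9.53 and 9.88 with CpG and 6.15, 6.01 and 5.88 in WT controls, a difference of -1.9 ± 0.28. Fpr2 and Hcar2 differed by -1.92 ± 0.35 and -1.91 ± 0.36, Cd40 by -1.74 ± 0.28, Nfkbiz by -1.15 ± 0.31, Slc7a11 by -1.23 ± 0.29, Pfkl by -0.84 ± 0.21 and Dusp16 by -0.62 ± 0.17. The fitted difference of Ptges, which was not well above background in controls labelled ATF3-/-, was -1.21 ± 0.26. The chemokine genes Ccl3 and Ccl4 differed by -1.34 ± 0.19 and -1.46 ± 0.21 and were higher in controls labelled ATF3-/- by 1.39 and 1.45. With the chip as a block the differences of Nfkbiz, Ptges, Slc7a11 and Pfkl did not pass, and those of Nfkbiz and Dusp16 did not pass when any of 9 of the 12 arrays was left out (adjusted p of up to 0.0933 and 0.12). Median scaling left those 5 genes and Fpr2, Hcar2, Cd40 and Ccl3 short of the threshold (adjusted p = 0.0975, 0.186, 0.173 and 0.171 for the last 4). Hcar2 also did not pass without background correction, with the deposited matrix values or with only the groups compared (adjusted p of up to 0.0691).

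The responses most above WT were of another kind. Gab1, a docking protein of growth factor receptors, had 7.83, 7.88 and 8.31 with CpG and 7.65, 7.54 and 7.92 in controls labelled ATF3-/-, against 7.97, 7.87 and 7.7 with CpG and 9.38, 9.44 and 9.55 in WT controls. It fell by 1.61 in WT and did not pass under the label ATF3-/- (0.3, adjusted p = 0.0765), whose controls lay near the WT CpG arrays, and the difference in response was 1.92 ± 0.2 (adjusted p = 9.58e-07). Dusp5 had 6.91, 6.89 and 7.07 with CpG and 5.7, 5.7 and 5.66 in controls labelled ATF3-/-, and it rose by 1.27 under the label ATF3-/- and fell by 0.38 in WT, a difference of 1.65 ± 0.19. Fosl2 (1.4 ± 0.19), Egr2 (1.51 ± 0.25), Dusp1 (0.9 ± 0.19), Gadd45a (1.74 ± 0.26) and Adgre5 (1.71 ± 0.36) also had the higher response. Lcn2 reached 11.51, 11.06 and 11.07 with CpG under the label ATF3-/-, against 9.49, 10.31 and 10.01 with CpG in WT, where all 3 arrays were lower. Lcn2, Pitpnc1, Slamf1, Adora3, S100a8, Gfi1 and Arg2 were not well above background in controls labelled ATF3-/-, and their fitted differences, which are no bounds, were 1.69 ± 0.33, 2.05 ± 0.41, 1.94 ± 0.36, 1.88 ± 0.33, 1.75 ± 0.26, 1.71 ± 0.24 and 1.23 ± 0.32. Ccl7 differed by 1.4 ± 0.36, which did not pass with the chip as a block. Ccl7 and Arg2 did not pass when any of 5 of the 12 arrays was left out (adjusted p of up to 0.0779 and 0.0882). With median scaling the differences of Fosl2, Egr2, Dusp1, Adgre5, Lcn2, Pitpnc1, Ccl7 and Arg2 did not pass (adjusted p of 0.0573 to 0.66).

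The TLR2 ligand P3C was compared with CpG under the label ATF3-/-. P3C changed 4569 genes (49.6%), with 1982 rises (21.5%) and 2587 falls (28.1%), against the same 3 controls, which the 2 responses share. The direct comparison of CpG with P3C arrays found 152 genes (1.65%), 92 (0.999%) higher and 60 (0.651%) lower with CpG. At least 2-fold differences were found for 28 (0.304%) and 4 (0.0434%). The counts were 14 higher and 2 lower with median scaling, and 4 and 0 in a fit of only the 2 groups. Socs3 had 13.71, 13.84 and 13.63 with CpG and 13.5, 13.52 and 13.72 with P3C, and Tnf had 13.73, 13.59 and 13.29 with CpG and 13.52, 13.67 and 13.5 with P3C. The arrays of both ligands overlapped in both genes (adjusted p = 0.924 and 0.98).

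The genes higher with CpG than with P3C included a small cytokine and chemokine group. Il27 was higher by 1.3 ± 0.2 (adjusted p = 0.00036), Ccl7 by 1.32 ± 0.25, Cxcl10 by 1.09 ± 0.27, Ccl5 by 0.97 ± 0.2 and Il1rn by 0.85 ± 0.19. Cxcl10 did not pass when any 1 of the 6 arrays was left out (adjusted p of up to 0.132), nor Il1rn without either of 2 of them (up to 0.0718) or Ccl5 without 1 (0.0504). Edn1 had 10.9, 10.97 and 10.87 with CpG and 9.7, 9.72 and 9.81 with P3C, a difference of 1.17 ± 0.2 without overlap. The largest differences were those of Htra4, a serine protease gene, with 7.01, 6.93 and 6.74 with CpG and 5.64, 5.39 and 4.56 with P3C (1.7 ± 0.24), Fam217b (1.61 ± 0.16), Rubcnl (1.5 ± 0.17), the endoplasmic reticulum chaperone gene Hyou1 (1.44 ± 0.29), the adenosine receptor gene Adora3 (1.41 ± 0.24) and the cytokine gene Il19 (1.4 ± 0.21). On the 2 chips that held both ligands these 6 genes were higher with CpG by 1.01 to 2.18. They were picked for their difference on arrays that include these, so this is not a separate check. Of the interferon-stimulated genes 4 of 31 were higher with CpG and none lower, with a median of 0.48, and medians of 0.53 and 0.49 within these chips. With median scaling none of the 31 passed, and the median was 0.55.

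Lower with CpG than with P3C were Rasgrf1 (-1.33 ± 0.2), Smad3, a TGF-beta signal transducer gene (-1.11 ± 0.18), Tal2 (-1.07 ± 0.26), Plekhg3 (-1.01 ± 0.18), Dock2, a Rac activator gene (-1.0 ± 0.21), and Narf (-0.95 ± 0.15). Within the 2 shared chips, whose arrays also served to pick them, all 6 were lower with CpG. The CpG response of Smad3, Tal2 and Narf was also lower than in WT, with differences of -1.08 ± 0.25, -1.67 ± 0.37 and -1.43 ± 0.22. That of Smad3 did not pass without the WT CpG array that stood apart (adjusted p = 0.0542), nor that of Tal2 with the chip as a block. With median scaling the label differences of Smad3, Tal2 and Narf did not pass (adjusted p = 0.253, 0.168 and 0.143). Cxcl1 had 12.69, 13.23 and 12.44 with CpG and 13.78, 13.88 and 13.26 with P3C, a difference of -0.86 ± 0.27 that did not pass (adjusted p = 0.107).

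**Figure D5:**
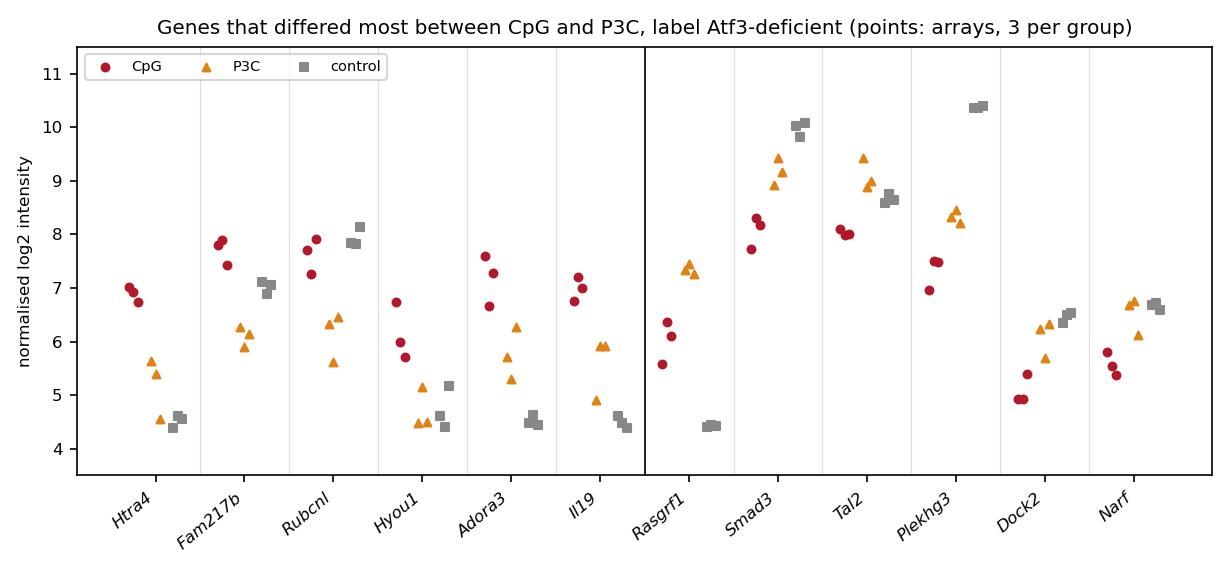
Log2 normalised signal (vertical axis) of 12 genes on arrays labelled ATF3-/- with CpG, P3C and no ligand; points are the 3 arrays of each group, and a vertical line parts the 6 genes higher with CpG than with P3C, on the left, and the 6 lower, on the right. The CpG and P3C points did not overlap for Htra4, Fam217b, Rasgrf1 and Smad3, and Plekhg3 and Smad3 were lower than controls with both ligands.

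The earlier experiment, of WT macrophages with the same dose, called 3046 of 8910 genes (34.2%), 1148 (12.9%) higher and 1898 (21.3%) lower. It was normalised separately, so levels are not set across experiments. Its responses for the leading genes were 6.33 for Socs3, 5.36 for Il1b, -3.94 for Fam214a and -4.07 for Cxcr4, against 7.0, 6.01, -5.06 and -3.75 under the label ATF3-/-. Mx2 rose by 1.94 and Ch25h by 3.04 in that experiment, between the responses of both labels in the experiment described here. The median of the interferon-stimulated list was 0.69 there, against 0.25 under the label ATF3-/- and 1.23 in WT of the experiment described here.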

How the data were processed

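RNA was measured on Illumina mouse BeadChips of 6 arrays. Intensity is the deposited mean bead signal of each probe, without background subtraction per the file headers, and the detection p-value is the authors' deposited value for each probe and array. Partek is named in the submitters' processing notes, with no version. The deposited matrix values are on a linear signal scale, had a median of 113.9 on every array and ranked probes as the bead signal did (Spearman correlation of at least 0.99999), so that they are normalised between arrays by a method not given in the sources used here.

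Signals of the 36 macrophage arrays of the experiment were corrected with normexp, with parameters inferred from detection p-values, an offset of 16 and quantile normalisation (neqc), and taken as log2, with limma 3.58.1 in R 4.3.3. Probes were named from the platform annotation: 34885 had 1 gene symbol, 18 several and 10378 none. For 9172 genes several probes were present, and that of the highest mean signal was kept. The 9213 genes detected (p under 0.01) on at least 3 arrays were tested with 1 mean for each of 12 groups, 24 residual degrees of freedom and eBayes. The threshold is a Benjamini-Hochberg adjusted p of 0.05 over all genes tested, and ± is a standard error. A gene detected on no array of a group is not well above background there. Its fold is a lower bound, taken against the mean of the higher of its own signal and the lowest detected signal on each array.

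Of 433 genes in 28 lists, 393 had a probe. Members and lists were chosen with earlier results of these data known. Named genes are 20 followed genes, the 10 largest rises and falls, the 5 largest bounds each way, the 4 largest changes of each list, the 8 largest label differences and the 6 largest ligand differences each way, leaving out clone names. Other named genes were chosen after their values were seen and were followed through the alternatives too where the text gives their response or its difference. Alternatives were no background correction, median scaling, the deposited matrix values, other detection filters, every probe, the chip as a fixed or random effect, array weights, only the groups compared, and leaving out each array. Median deposited intensity was 91 to 149.2 over the arrays, and the number of arrays limits the precision. The test was checked on simulated data with independent noise, no chip effect and few genes changed. That check does not cover normalisation, chips or a response as wide as this one. Promoters are from RefSeq on GRCm38.p6, matched by symbol (7545 of the 9213 genes). HDL arrays entered only the shared spread, and artery arrays were not used. Plots used matplotlib 3.10.9 under Python 3.11.15.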

Additional observations from a re-analysis of the deposited data

Results flagged for a closer look

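For 49 named genes the CpG response differed between the labels ATF3-/- and WT past the threshold. Values are the response under the label ATF3-/- minus that in WT, on the log2 scale. Where a gene was not well above background in a control group the value is that of the fit.

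Among interferon-stimulated genes and their inducer the response was lower for Mx2 (-2.45), Cmpk2 (-2.14), Rsad2 (-1.86), Usp18 (-1.84), Ifit2 (-1.79), Gbp2 (-1.44), Ifit3 (-1.33), Irf1 (-1.31), Ifnb1 (-1.28), Gbp3 (-1.03) and Irf7 (-0.93). Among sterol and oxysterol genes it was lower for Ch25h (-1.92), Stard4 (-1.84), Hsd17b7 (-1.4), Msmo1 (-0.93), Mvd (-0.91), Lss (-0.798) and Sqle (-0.79). Among chemokines, receptors and costimulatory genes it was lower for Fpr2 (-1.92), Hcar2 (-1.91), Cd40 (-1.74), Ccl4 (-1.46) and Ccl3 (-1.34). It was also lower for Rnf213 (-2.64), Rasgrf1 (-2.11), Jdp2 (-1.9), Tal2 (-1.67), Narf (-1.43), Slc7a11 (-1.23), Ptges (-1.21), Nfkbiz (-1.15), Smad3 (-1.08), Pfkl (-0.84) and Dusp16 (-0.62).

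The response was higher under the label ATF3-/- for Pitpnc1 (2.05), Slamf1 (1.94), Gab1 (1.92), Adora3 (1.88), S100a8 (1.75), Gadd45a (1.74), Gfi1 (1.71), Adgre5 (1.71), Lcn2 (1.69), Dusp5 (1.65), Egr2 (1.51), Fosl2 (1.4), Ccl7 (1.4), Arg2 (1.23) and Dusp1 (0.896).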

How the results depend on the processing

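With a further limit of 2-fold there were 1670 genes in the CpG response labelled ATF3-/-, 1611 in that of WT, 126 in the difference between labels and 32 in the comparison of CpG with P3C. The difference between labels held 190 genes with the chip as a fixed effect (152 shared with the 287), 32 with median scaling and 67 with only the groups compared. CpG against P3C held 16 and 4 genes with the last 2 settings, against 152. Leaving out 1 array gave 4295 to 4509 genes for the CpG response labelled ATF3-/-, 4230 to 4705 for that of WT, 180 to 473 for the difference between labels and 95 to 213 for CpG against P3C. The lowest difference counts came without replicate 3 of the ATF3-/- controls (180) and without replicates 3 and 2 of the WT controls (187 and 190), and the highest without replicate 2 of WT CpG (473). CpG against P3C held 95 genes without replicate 3 of CpG and 98 without replicate 2 of P3C. The CpG response labelled ATF3-/- held 3385 to 5455 genes under the other settings on 1 probe a gene, with 26.9% of calls higher under median scaling, against 40%. The cause of these shifts was not tested.

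Directions turned for 7 of the 249 values followed (174 of the CpG response, 54 of the label difference and 21 of the ligand difference), none of which passed the threshold. The Ifnb1 response labelled ATF3-/- was -0.041 with array weights and -0.14 to 0.29 without 1 array, and that of Cyld was -0.032 with the chip as a fixed effect and -0.0092 with median scaling. That of Top2a ran from -0.15 to 0.0057 without 1 array. The label difference of Socs3 was 0.30 with the chip, 0.0008 with median scaling and -0.29 to 0.0502 without 1 array. That of Ifi205 was -0.064 with the chip and -0.22 to 0.65 without 1 array, and that of Gbp5 was 0.0175 with array weights. The ligand difference of Tnf was 0.0257 with median scaling and -0.13 to 0.0951 without 1 array. Otherwise, over all alternatives, 2530 values of the CpG response kept their side of the threshold, 62 lost it and 12 gained it, against 1014, 114 and 0 of the label difference, and 269, 42 and 1 of the ligand difference. Without 1 array the calls of Hsd17b7, Stard4, Srxn1 and Tap1 in the CpG response were lost at adjusted p of up to 0.247, 0.118, 0.0792 and 0.137, that of Egr1 at 0.154, and Jun (0.0402 without replicate 3 of CpG), Rnf213 (as low as 0.0375) Gab1 (as low as 0.0302) and Cd80 (0.0258) passed. Likewise lost were the label differences of Pfkl (up to 0.0653), Slc7a11 (0.0562) and Smad3 (up to 0.0611), and the ligand differences of Hyou1 (0.0652), Dock2 (0.055) and Tal2 (up to 0.136), while that of Cxcl1 passed (0.0457) without replicate 2 of CpG. Probes not well above background limit folds to bounds. No paired analysis was possible because the labels give no replicate numbers.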
